A study of Mus musculus with 12 samples.

Results

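Sirtuins are enzymes that remove acetyl and related acyl groups from lysines and consume NAD in doing so, which ties their activity to the NAD supply of the cell. Sirt1, Sirt6 and Sirt7 act mainly in the nucleus, Sirt2 mainly in the cytosol, and Sirt3, Sirt4 and Sirt5 in mitochondria, which are abundant in heart muscle. Ep300 and Crebbp are paralogous acetyltransferases that put acetyl groups on histones and other proteins and serve as coactivators of many transcription factors. Spermidine is known as an inducer of autophagy, and inhibition of Ep300 by spermidine has been described.

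The transcripts of these enzymes were taken from an array study of mouse hearts that asks how spermidine, a natural polyamine, acts on the ageing heart. All probes of the non-normalized table were chosen whose gene symbol was Sirt1 to Sirt7, Ep300 or Crebbp, which gave 10 of 25697 probes. They stood for 7 of the 9 genes, and Sirt4 and Crebbp were not analysed here. The gene was read by 1 probe each for Sirt1 (ILMN_2643159), Sirt2 (ILMN_2676181), Sirt3 (ILMN_2737480), Sirt7 (ILMN_1253970) and Ep300 (ILMN_2800358). Sirt5 had 2 probes, called probe 1 (ILMN_2711045) and probe 2 (ILMN_2707079) below. Sirt6 had 3 (ILMN_2684909, ILMN_2671176 and ILMN_2684910). The rule goes by gene symbol.

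Whole-heart RNA of C57Bl/6 mice was hybridised to 12 Illumina bead arrays in 3 groups of 4. The groups were young mice of 6 months without treatment, mice of 30 to 32 months without treatment (aged), and mice as old as the aged group that had taken 3 mM spermidine in the drinking water from month 4 onward, in specific-pathogen-free housing. The arrays are read as 1 animal each from the numbers in their titles; nothing else in the labels states this, so a p-value reflects how far these samples scatter, which may be technical, and sex was not given in the sources used here. Values are log2 of the quantile-normalized intensity plus 16, and a probe counts as above background where its intensity exceeds 3 SDs of the array's noise.

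Mean intensity per array lay between 259 and 313 units. The background limit was 13.2 to 15.8 units, and each array had 11689 to 12337 probes over it. The heart label held: of 11 measured cardiomyocyte markers, 11 were above the limit on every array, with a mean of 12.82 to 13.12. Some arrays stood apart in make-up. Airway markers averaged 7.23 in young replicate 4 and 6.48 in spermidine replicate 3 against 3.91 to 4.56 on the other arrays, and adipocyte markers 7.82 and 7.02 there against 4.43 to 6.07. Atrial markers averaged 9.36 in aged replicate 1 against 11.53 to 11.99 elsewhere. For the sirtuins and Ep300, differences that moved by over 1.5 times or changed sign when 1 of these arrays was left out are given without it as well; none of them passed the test with or without it.

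The promoters of Sirt1, Sirt3 and Ep300 are shown because these genes had the largest estimated differences among the probes above background. Each sequence is the 250 bases before the gene's start in RefSeq (GRCm38.p6), 5′ to 3′ in the gene's direction. Sirt3 and Sirt6 have 2 starts each in that table, and the Sirt3 stretch shown is that of its first window. The Sirt1 stretch lies at chr10:63339036-63339285 on the minus strand, the Sirt3 stretch at chr7:140882310-140882559 on the minus strand, and the Ep300 stretch at chr15:81585964-81586213 on the plus strand. Capitals mark matches on either strand to CACGTG (the E-box bound by clock and Myc-type factors) and CCGGAAG (a core of ETS-factor sites, CTTCCGG on the other strand).

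Sirt1: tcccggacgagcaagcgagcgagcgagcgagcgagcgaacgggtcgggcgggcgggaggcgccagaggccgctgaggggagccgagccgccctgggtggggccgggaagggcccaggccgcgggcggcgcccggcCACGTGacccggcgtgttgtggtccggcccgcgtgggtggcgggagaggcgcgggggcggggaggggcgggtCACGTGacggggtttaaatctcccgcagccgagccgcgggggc
Sirt3: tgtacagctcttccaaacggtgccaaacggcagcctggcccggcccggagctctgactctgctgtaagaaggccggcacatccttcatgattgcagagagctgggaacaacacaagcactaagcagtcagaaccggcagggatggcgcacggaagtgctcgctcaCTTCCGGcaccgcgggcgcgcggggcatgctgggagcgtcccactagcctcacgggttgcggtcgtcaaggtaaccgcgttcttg
Ep300: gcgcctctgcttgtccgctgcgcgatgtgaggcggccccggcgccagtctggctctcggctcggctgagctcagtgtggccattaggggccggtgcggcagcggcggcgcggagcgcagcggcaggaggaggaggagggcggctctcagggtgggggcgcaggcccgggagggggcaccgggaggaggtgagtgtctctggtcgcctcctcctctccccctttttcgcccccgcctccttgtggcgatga

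Motifs were searched on both strands in the 300-base windows of all 9 genes, Sirt4 and Crebbp included, which had 11 windows together, and in all 32851 windows of the table. CACGTG occurred at 2 places in the Sirt1 window, the 1 of the 11 windows that held it, against 7.15% of all windows. CCGGAAG occurred in 3 of the 11 windows, those of Sirt3 (the one shown), Sirt6 and Sirt7, against 8.86% of all windows, and GCGCATGCG (the core of NRF1 sites) in 2, those of Sirt6 and Sirt7, against 1.75%. The cAMP response element TGACGTCA occurred in 0 of the 11 and in 1.79% of all windows. The GC box GGGCGG was present in 8 of the 11 windows, against 35.7%, and CCAAT in 3 (of Sirt2, Sirt3 and Sirt5), against 37.4%. For Sirt3 both of these lie in the second window, which is not shown, and not in the first. Windows of Crebbp and Sirt1 were richest in G and C (82.0% and 79.0%, against a median of 52.7% over all windows). The 9 genes lie on chromosomes 5, 7, 10, 11, 13, 15 and 16, with Sirt2 and Sirt3 both on 7 and Sirt1 and Sirt6 both on 10. A match is a description of the letters and not of a bound site.

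Transcripts of Sirt1, Sirt2, Sirt3, Sirt5, Sirt7 and Ep300 were above background on all 12 arrays, and none of these 6 genes differed between young, aged and spermidine-fed aged hearts beyond the spread between samples in limma's test. In aged against young hearts 0 of the 10 probes passed limma's test at an adjusted p below 0.05, where 0.797% of the 20573 tested probes did, and 0 had an unadjusted p below 0.05, against 14.3% of all tested probes. For spermidine against aged hearts the counts were again 0 and 0, against 0.00486% and 9.45%, and for spermidine against young hearts 0 and 0, against 0.16% and 7.49%. The groups overlapped for every one of the 10 probes in every comparison, while they did not overlap for 8.07%, 3.27% and 5.51% of all tested probes in the same order. A p that misses the threshold does not show equal levels, so the intervals are given: over the 7 probes above background, the 95% intervals reached no further than a 0.684-fold to 1.57-fold level in aged against young, 0.640-fold to 1.45-fold with spermidine against aged, and 0.697-fold to 1.34-fold with spermidine against young hearts. In whole-heart RNA, fewer cells of a type and less transcript per cell cannot be told apart.

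**Figure D1:**
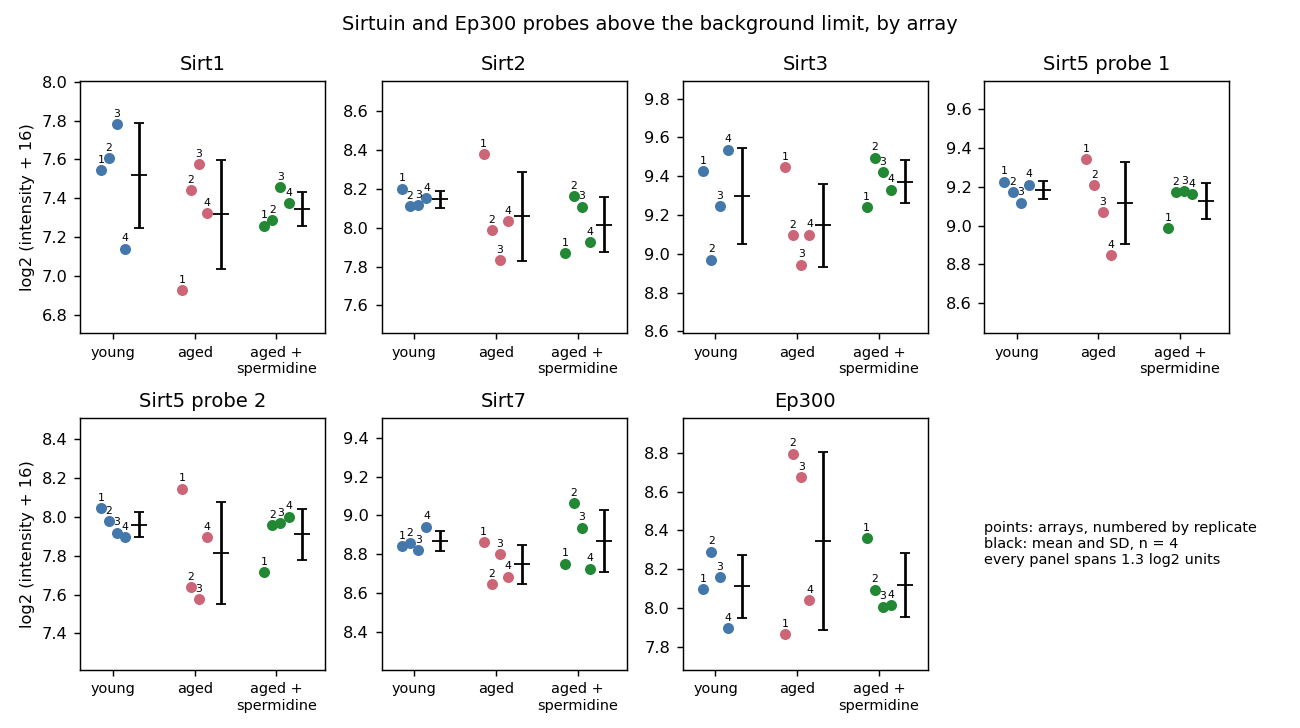
Log2 (intensity + 16) of each probe above the background limit on the 12 arrays, with points numbered by replicate and the mean and SD of each group (n = 4) beside them. The 3 groups overlap in every panel; aged replicates 2 and 3 stand highest for Ep300 (8.80 and 8.68) and aged replicate 1 lowest for Sirt1 (6.93).

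Among the nuclear members, Sirt1 deacetylates histones, p53 and FoxO factors. Its log2 values in young hearts were 7.54, 7.61, 7.78 and 7.14 for replicates 1 to 4. In aged hearts they were 6.93, 7.44, 7.58 and 7.32, and in spermidine-fed hearts 7.26, 7.29, 7.46 and 7.38. The lowest young value belonged to replicate 4, an array with airway and adipocyte transcripts, and the lowest aged value to replicate 1, the array low in atrial transcripts. Spermidine replicate 3, the other array with airway and adipocyte transcripts, had the highest value of its group (7.46). Sirt1 averaged 7.52 ± 0.27 in young, 7.32 ± 0.28 in aged and 7.34 ± 0.09 in spermidine-fed hearts (SD, n = 4 each). The difference of aged from young hearts was -0.20 (SE 0.16, limma adjusted p = 0.606) and that of spermidine-fed from aged hearts 0.03 (SE 0.16, adjusted p = 0.969). Without young replicate 4 the first became -0.33 (adjusted p = 0.394), and without aged replicate 1 it became -0.07 (adjusted p = 0.872). The difference of spermidine-fed from aged hearts changed sign to -0.10 without aged replicate 1 and to -0.01 without spermidine replicate 3. Spermidine-fed hearts differed from young hearts by -0.17 (SE 0.16, adjusted p = 0.926). Without young replicate 4 that difference was -0.30, without spermidine replicate 3 as well it was -0.34 (adjusted p = 0.849), and without aged replicate 1 as well its unadjusted p was 0.0261 (adjusted p = 0.626).

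Sirt7, a deacylase of the nucleolus that is linked to ribosomal RNA transcription, had the smallest spread of the probes above background. Young hearts read 8.84, 8.86, 8.82 and 8.94, aged hearts 8.86, 8.64, 8.80 and 8.68, and spermidine-fed hearts 8.75, 9.06, 8.94 and 8.72. All of these values lay within a range of 0.42 over the 12 arrays. The pooled SD of Sirt7 within groups, 0.11, exceeded that of 11.5% of the 10311 probes that were above background everywhere. Aged hearts differed from young by -0.12 (SE 0.11, limma adjusted p = 0.665), spermidine-fed from aged by 0.12 (adjusted p = 0.754), and spermidine-fed from young by 0.00 (95% interval -0.23 to 0.24). That last difference was 0.03 without young replicate 4 and -0.02 without spermidine replicate 3.

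Sirt6, a histone deacetylase involved in DNA repair and glucose metabolism, was not above background on any array. Its 3 probes exceeded the limit on 0 of 12 arrays, with intensities of -2 to 10, -1 to 6 and -4 to 9 units against limits of 13.2 to 15.8. No fold is given for it. These readings bound what the probes detected here and do not show that the transcript is absent.

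Sirt2 deacetylates tubulin among other cytosolic proteins. It read 8.20, 8.11, 8.12 and 8.15 in young hearts, 8.38, 7.99, 7.84 and 8.03 in aged hearts, and 7.87, 8.16, 8.11 and 7.93 in spermidine-fed hearts. Young hearts spanned 0.09 on the log2 scale, and the aged hearts lay on both sides of them, with replicate 1 above and the other 3 below. The differences were -0.09 for aged against young (SE 0.13, limma adjusted p = 0.802), -0.04 for spermidine against aged (adjusted p = 0.940) and -0.13 for spermidine against young (adjusted p = 0.938). Without aged replicate 1 the first was -0.19 and the second changed sign to 0.06, and without aged replicate 3 they were -0.01 and -0.12. Without spermidine replicate 1 the difference of spermidine-fed from aged hearts was 0.01 and that from young hearts -0.08, and without spermidine replicate 3, the array with airway transcripts, the former was -0.07.

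Sirt3, the main deacetylase of the mitochondrial matrix, read 9.43, 8.97, 9.25 and 9.54 in young hearts. Aged hearts read 9.45, 9.10, 8.94 and 9.10, and spermidine-fed hearts 9.24, 9.50, 9.42 and 9.33. The spermidine-fed values lay above those of aged replicates 2, 3 and 4 and overlapped with aged replicate 1. Sirt3 was 9.30 ± 0.25 in young, 9.15 ± 0.21 in aged and 9.37 ± 0.11 in spermidine-fed hearts (SD, n = 4 each). Spermidine-fed hearts differed from aged hearts by 0.23 (SE 0.15, 95% interval -0.09 to 0.54, limma adjusted p = 0.648), and aged from young hearts by -0.15 (SE 0.15, adjusted p = 0.685). Without aged replicate 1 the spermidine difference was 0.33, with an unadjusted p of 0.0396 and an adjusted p of 0.5004. The difference of aged from young hearts was -0.26 without young replicate 2, -0.25 without aged replicate 1, -0.07 without young replicate 4 and -0.08 without aged replicate 3. Against young hearts, those with spermidine differed by 0.08 (adjusted p = 0.985), which was 0.16 without young replicate 4 and -0.03 without young replicate 2.

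Sirt5 removes succinyl, malonyl and glutaryl groups in mitochondria. Its probe 1 read 9.23, 9.18, 9.12 and 9.21 for young hearts, 9.34, 9.21, 9.07 and 8.85 for aged hearts, and 8.99, 9.17, 9.18 and 9.16 for spermidine-fed hearts. Probe 2 read 8.04, 7.98, 7.92 and 7.90 for young hearts, 8.15, 7.64, 7.58 and 7.90 for aged hearts, and 7.72, 7.96, 7.97 and 8.002 for spermidine-fed hearts. On both probes aged replicate 1 was the highest array and spermidine replicate 1 the lowest of its group, but aged replicate 4 was lowest of all on probe 1 and level with young replicate 4 on probe 2. Aged hearts differed from young by -0.07 (SE 0.12, limma adjusted p = 0.846) on probe 1 and -0.15 (SE 0.13, adjusted p = 0.662) on probe 2. Spermidine-fed hearts differed from aged by 0.01 (adjusted p = 0.988) and 0.10 (adjusted p = 0.848). Without aged replicate 4 the difference of aged from young hearts on probe 1 was 0.02. Without aged replicate 1 it was -0.14 on probe 1 and -0.26 on probe 2, and that of spermidine-fed from aged hearts was 0.08 and 0.21. Without aged replicate 3 the differences on probe 2 were -0.07 and 0.02. The difference of spermidine-fed from young hearts was -0.06 (adjusted p = 0.989) on probe 1 and -0.05 (adjusted p = 0.991) on probe 2. Without spermidine replicate 3 the difference of spermidine-fed from aged hearts on probe 1 changed sign to -0.01.

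**Figure D2:**
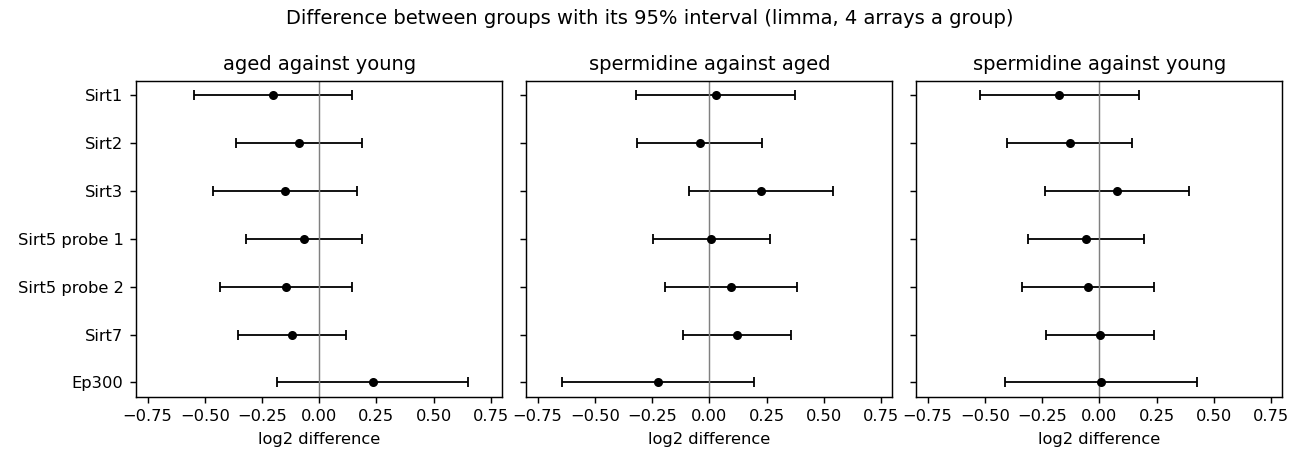
Log2 difference between groups (horizontal axis) for the 7 probes above the background limit, with 95% intervals from limma over 12 arrays. Every interval holds 0; Ep300 lies at 0.23 in aged against young and -0.22 in spermidine against aged hearts.

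Of the chosen acetyltransferases Ep300 and Crebbp, only Ep300 was analysed here. It read 8.10, 8.29, 8.16 and 7.90 for young hearts, 7.87, 8.80, 8.68 and 8.04 for aged hearts, and 8.36, 8.09, 8.01 and 8.02 for spermidine-fed hearts. Aged replicates 2 and 3 stood above all other arrays, and aged replicate 1 was the lowest of the 12. The mean was 8.11 ± 0.16 for young hearts, 8.34 ± 0.46 for aged hearts and 8.12 ± 0.17 in spermidine-fed hearts (SD, n = 4 each). Its SD in aged hearts exceeded that of 92.0% of the probes above background on all arrays, against 63.7% in young and 55.1% in spermidine-fed hearts. The difference of aged from young hearts was 0.23 (SE 0.19, 95% interval -0.19 to 0.65, limma adjusted p = 0.623). Spermidine-fed hearts differed from aged hearts by -0.22 (SE 0.19, 95% interval -0.64 to 0.19, adjusted p = 0.738), and from young hearts by 0.01 (adjusted p = 0.998). Because the aged arrays enter the first and second of these comparisons, the opposite signs are not separate observations. Without aged replicate 1 the differences were 0.39 (unadjusted p = 0.0502, adjusted p = 0.358) and -0.38 (adjusted p = 0.531), without aged replicate 2 they were 0.08 and -0.07, and without aged replicate 3 they were 0.12 and -0.11. The difference of spermidine-fed from young hearts was -0.06 without young replicate 4 and 0.05 without spermidine replicate 3.

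Among the 7 probes above background, 6 estimates were lower and 1 higher in aged against young hearts, with a median of -0.12, where the median over all tested probes was -0.01. With spermidine against aged hearts 5 were higher and 2 lower, with a median of 0.03, against 0.005 over all tested probes. Over all genes tested, 47.6% were higher in aged than in young hearts and 52.1% higher in spermidine-fed than in aged hearts. The 2 Sirt5 probes read 1 gene and all estimates rest on the same arrays, so these counts are not of separate observations. Within the aged group the probes parted in replicate 1 and in part in replicates 2 and 3, but not in replicate 4. Aged replicate 1 was the highest aged array for Sirt2, Sirt3, both Sirt5 probes and Sirt7, by deviations of 0.31, 0.18, 0.20, 0.25 and 0.03 from the probe's mean over the 12 arrays, and the lowest for Sirt1 (-0.47) and Ep300 (-0.33). In aged replicate 3 the signs were turned, with Sirt2 at -0.24, Sirt3 at -0.33 and Sirt5 probe 2 at -0.32 while Sirt1 was at 0.18 and Ep300 at 0.48. Sirt5 probe 1 (-0.07) and Sirt7 (-0.03) lay near their means there. In aged replicate 2 Ep300 was at 0.60, Sirt5 probe 1 at 0.07 and Sirt1 at 0.05. Sirt2 was at -0.09, Sirt3 at -0.18, Sirt5 probe 2 at -0.26 and Sirt7 at -0.18 on that array. In aged replicate 4 Sirt1 (-0.07) and Ep300 (-0.15) were below their means, as were Sirt2 (-0.04), Sirt3 (-0.17), Sirt5 probe 1 (-0.29) and Sirt7 (-0.14), with Sirt5 probe 2 at 0.00. Aged replicate 1 was also the array low in atrial markers and lowest in cardiomyocyte markers (12.82); their part in this pattern was not tested. Aged arrays were in general more spread than others: the median SD of the 10311 probes was 0.22 in aged, 0.13 in young and 0.15 in spermidine-fed hearts.

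**Figure D3:**
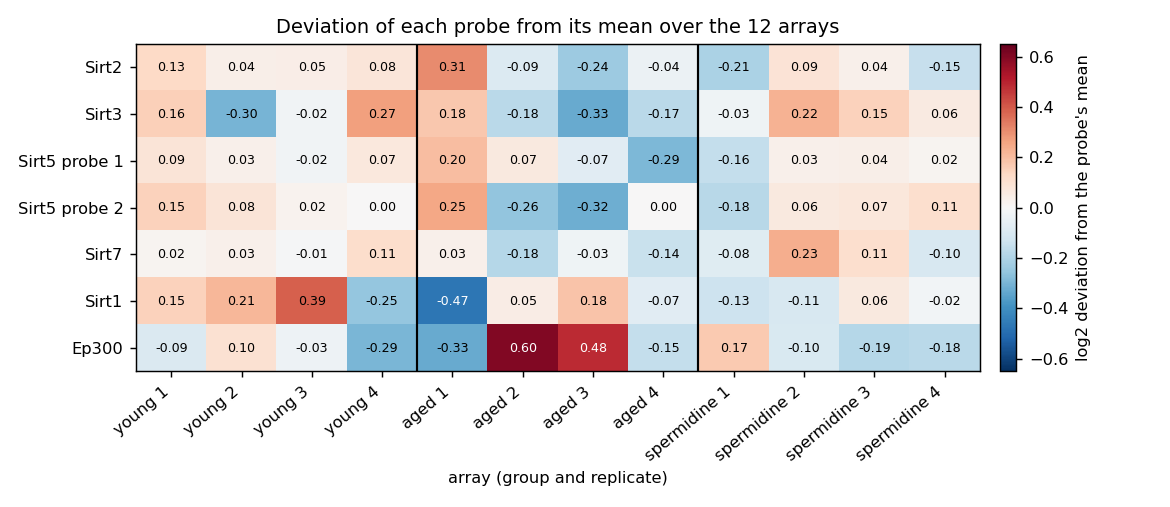
Deviation of each probe from its own mean over the 12 arrays, in log2 units, with vertical lines between young, aged and spermidine-fed hearts. Aged replicate 1 is positive for Sirt2, Sirt3, Sirt5 and Sirt7 and negative for Sirt1 (-0.47) and Ep300 (-0.33), and aged replicates 2 and 3 are highest for Ep300 (0.60 and 0.48).

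For each gene above background, the most similar named transcripts were found among 9736 probes above background on all arrays, as those with the smallest mean absolute difference of centred log2 values over the 12 arrays. Nearest to Sirt1 were Ppm1d (0.08, where Sirt1 itself deviated from its mean by 0.18 on average) and Leprotl1 (0.09). Nearest to Sirt3 were the ribosomal protein gene Rpl39 (0.06, against an own deviation of 0.17) and the complex I subunit gene Ndufs4 (0.07). Nearest to Ep300 were Bnip2 (0.07, against 0.23) and Kif21a (0.08). The others were Fam162a and Smim26 for Sirt2 (0.06 and 0.07, against 0.12), Ppp1r35 and Rps15 for Sirt5 probe 1 (each 0.05, against 0.09), and Cxxc1 and Rbm42 for Sirt7 (each 0.05, against 0.09). Sirt5 probe 2 was not searched. These are the closest of many candidates on the same arrays and are given as a description.

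Genes around these enzymes were read as 6 lists, with 1 probe per gene. Of the genes tested, 7 of 16 for NAD and 18 of 19 for sirtuin regulators and targets were above background on all 12 arrays. For other acetyltransferases this held for 14 of 18, and for zinc-dependent deacetylases and corepressors for 9 of 14. For partners of Ep300 and Crebbp it held for 15 of 22, and for acetyl-CoA for 14 of 14. The list medians include the dim genes. In aged against young hearts 1 of the 103 list genes tested passed limma's test over all probes, or 0.971%, a share near the 0.797% of all probes. With spermidine against aged or young hearts 0 passed. Over all genes tested, 47.6% were higher in aged than in young hearts and 52.1% higher in spermidine-fed than in aged hearts. The aged arrays enter both comparisons, so opposite signs in them are not separate observations for any list or gene below. Of the genes that make, use or phosphorylate NAD, 16 of 24 were tested; 1 rose with age and 0 fell, and the median difference was -0.06, against -0.01 over all genes. The gene that rose was Ido1, the indoleamine dioxygenase that opens the tryptophan route toward NAD and is known to be induced by interferon gamma. Of the same route, Kmo, Kynu, Qprt and Tdo2 had a probe that the filter on dim probes removed. Haao was tested but was above background on 0 of 12 arrays, so the levels of these genes were not read here. Ido1 read 4.82, 5.11, 5.22 and 4.75 for young hearts, 6.01, 5.82, 6.75 and 7.08 for aged hearts, and 5.30, 6.24, 5.34 and 5.24 for spermidine-fed hearts. All 4 aged values lay above the young ones, and spermidine replicate 2 lay among the aged values while the other 3 lay between the groups. The rise was 1.44 on the log2 scale (SE 0.28, limma adjusted p = 0.0330), and spermidine-fed hearts differed from aged hearts by -0.89 (adjusted p = 0.457). The difference ranged from 0.88 with a constant of 50 to 1.91 with a constant of 4 over 24 alternatives. The call held in 13 of them and its adjusted p ranged from 0.0138 to 0.134. It was lost in fits that each left out 1 array: 0.115, 0.0860, 0.0834 and 0.0813 without young replicates 1 to 4, 0.0513 without aged replicate 1 and 0.0849 without aged replicate 3. Ido1 was above background on 10 of 12 arrays. Macrophage markers were higher on the aged arrays too, at 7.76 to 8.17 in aged and 7.77 to 8.27 in spermidine-fed against 7.45 to 7.49 in young hearts, with 7 of 7 above the limit on every array; their part in the Ido1 value was not tested.

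Nmnat1 and Nnmt had the next smallest p in this list and did not pass. Nmnat1, the nuclear enzyme of NAD synthesis, differed by 0.61 in aged against young hearts (adjusted p = 0.0950) and -0.26 with spermidine against aged hearts (adjusted p = 0.611). It was above background on 7 of 12 arrays. Its difference with age ranged from 0.29 to 1.04 over 24 alternatives and passed in 1 of them, with array weights (adjusted p = 0.0360). Nnmt, which methylates nicotinamide and so removes it from recycling, read 7.30, 6.95, 7.25 and 8.17 for young hearts, 6.01, 6.68, 6.66 and 6.81 for aged hearts, and 7.33, 6.80, 7.66 and 7.14 for spermidine-fed hearts. The aged values lay below all young ones, and the highest values of the young and spermidine-fed groups belonged to the arrays with airway and adipocyte transcripts. Nnmt differed by -0.88 in aged against young (SE 0.26, adjusted p = 0.142) and 0.69 in spermidine-fed against aged hearts (SE 0.26, adjusted p = 0.469). Without young replicate 4 and spermidine replicate 3 these were -0.63 and 0.55 (adjusted p = 0.252 and 0.667), and without aged replicate 1 as well -0.45 and 0.37 (adjusted p = 0.329 and 0.646).

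Of the regulators and targets of sirtuins, 19 of 26 were tested and 0 passed in either direction, with medians of -0.01 in aged against young and -0.15 in spermidine-fed against aged hearts, where the median over all genes was 0.01. The peroxide-degrading enzyme Cat differed by 1.08 with age (adjusted p = 0.182), with aged values of 9.59, 9.91, 8.41 and 10.52 against 8.43 to 8.67 in young hearts. Acadl and Ndufa9, a fatty acid dehydrogenase and a complex I subunit that Sirt3 is known to deacetylate, differed by 0.50 and 0.28 with age (adjusted p = 0.241 and 0.229), and by -0.42 and -0.23 with spermidine (0.524 and 0.520). Glud1, the mitochondrial glutamate dehydrogenase, differed by -0.49 with spermidine (adjusted p = 0.516). Acadl passed with age only without aged replicate 4 (adjusted p = 0.0201), and Cat only without aged replicate 3 (adjusted p = 0.0319).

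Other lysine acetyltransferases were tested for 18 of 22 genes, and 0 passed; the medians were -0.02 with age and 0.00 with spermidine against aged hearts. Kat2a, which encodes the acetyltransferase Gcn5, differed by 0.34 in aged against young (adjusted p = 0.259) and by -0.36 in spermidine-fed against aged hearts (adjusted p = 0.465). Kat7 differed by -0.17 with age and 0.21 with spermidine (adjusted p = 0.528 and 0.576). Esco2 was above background on 0 of 12 arrays. Zinc-dependent deacetylases and corepressors were tested for 14 of 16 genes with 0 past the threshold. With age 2 were higher and 12 lower (median -0.10), and with spermidine against aged hearts 9 were higher and 5 lower (median 0.09), where all genes had medians of -0.01 and 0.01. Hdac10 differed by -0.43 and 0.43 (adjusted p = 0.264 and 0.493), Hdac1 by -0.23 and 0.16, and the corepressor Sin3a by -0.21 and 0.17. Hdac8 differed by 0.30 with spermidine (adjusted p = 0.583) and was above background on 7 arrays.

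Among the transcription factors and cofactors that work with Ep300 and Crebbp, 22 of 23 were tested and 0 passed, with medians of -0.04 and -0.05. The cardiac factors Gata4, Srf and Tbx5 differed by -0.38, -0.23 and -0.50 in aged against young hearts (adjusted p = 0.251, 0.340 and 0.395). The lowest Tbx5 value was 4.83, in aged replicate 1, the array low in atrial markers, while aged replicates 2 to 4 lay at 5.82 to 6.04. Without that array the Tbx5 difference was -0.22 (adjusted p = 0.662). Hif1a, the hypoxia factor, differed by -0.34 and its competitor for Ep300, Cited2, by -0.33 with spermidine against aged hearts (adjusted p = 0.518 and 0.659). Genes that supply acetyl-CoA, use it or restrain its making were tested for 14 of 18, and 0 passed. The medians were -0.24 with age and 0.10 with spermidine. The list mixes these roles: the Pdk genes encode inhibitors of pyruvate dehydrogenase, and Cs and Acaca use acetyl-CoA. Its median is therefore no measure of supply. Acat1, the mitochondrial thiolase, differed by -0.54 with age (SE 0.14, adjusted p = 0.106) and passed in 1 of 24 alternatives, with array weights (adjusted p = 0.0487). Pdk2 differed by -0.28 and citrate synthase Cs by -0.27 (adjusted p = 0.264 and 0.319). Acaa2, a thiolase of fatty acid oxidation, differed by -0.47 with spermidine (adjusted p = 0.521). Its difference with age was 0.39 (limma adjusted p = 0.434). Without aged replicate 4 Acaa2 passed in both comparisons, at an adjusted p of 0.0256 with age and 0.0494 with spermidine. Over all probes, fits without 1 array called 41 to 559 with age and 0 to 49 with spermidine against aged hearts.

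**Figure D4:**
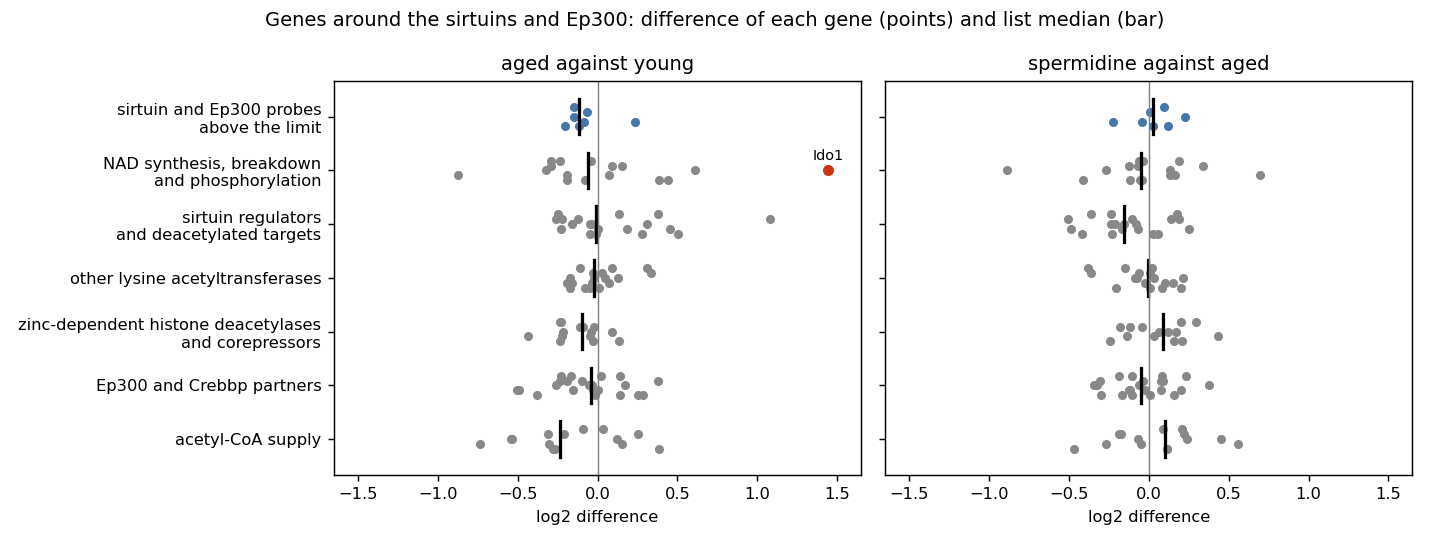
Log2 differences of single genes (points) in 6 gene lists and of the 7 sirtuin and Ep300 probes above background (top row), in aged against young (left) and spermidine-fed against aged hearts (right), with the median of each row as a bar. Ido1 (1.44, left) is the gene past the threshold; the sirtuin and Ep300 points lie between -0.20 and 0.23 on the left.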

How the data were processed

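The heart RNA was extracted with Trizol and RNeasy, amplified with an Illumina TotalPrep kit and labelled with biotin, as the labels' protocols say. Both deposited tables hold linear intensity in whole numbers for 25697 probes; the first is called non-normalized by its deposited name, and 24.1% of its values lie below 0, so a background had been subtracted. The other was normalized by the submitters in a way not given in the sources used here and served as an alternative. From the first, quantile normalization, addition of 16 and log2 gave the values; the added constant makes log2 differences of dim probes too small. The background limit of an array is 3 SDs of its values below 0 mirrored about 0. A probe was kept if 4 or more of the 12 arrays had it above their 25th percentile (20573, 80.1%), among them all 10 described.

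One limma model (version 3.58.1, R 4.3.3) of 3 group means over 12 arrays gave two-sided tests, Benjamini-Hochberg adjusted over all kept probes, with 0.05 as the threshold; the fit was tested on simulated data. Gene symbols came from the platform annotation, matched by Entrez ID to RefSeq for 23962 of 23978 named probes, and 1719 probes were unnamed. A gene of a list was read by its kept probe with the highest mean. The genes named are every member, every list gene past the threshold, and per list the 3 smallest p with age and the 2 smallest with spermidine. Members, lists, tests and alternatives were chosen with earlier results of these data known. Precision is limited by the number of arrays. Promoters were printed for the 3 genes with the largest estimates, a choice made after the values were seen. The replicate numbers of the titles are not stated to pair samples.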

Additional observations from a re-analysis of the deposited data

Results flagged for a closer look

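In groups of 4 arrays, a value was looked at again where its gap to the nearest other value exceeded Dixon's 95% critical share of the group's range, which chance gives in about 1 in 20 groups. Of 33 groups, from the 10 sirtuin and Ep300 probes and Ido1, 3 met this. Spermidine replicate 1 was low on both Sirt5 probes, at 8.99 on probe 1 (nearest value 9.16) and 7.72 on probe 2 (nearest value 7.96). Spermidine-fed hearts differed from young hearts by -0.06 on probe 1 and -0.05 on probe 2, and without that array by -0.01 on probe 1 and, with the sign changed, 0.02 on probe 2; 0 of these passed. Spermidine replicate 2 was high for Ido1, at 6.24 against 5.34 for the next.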

How the results depend on the processing

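Each result was computed again under 24 alternatives, 12 of which left out 1 array, and 0 of the 10 sirtuin and Ep300 probes passed in limma in any comparison under any of them. The smallest adjusted p reached was 0.274 with age, 0.413 with spermidine against aged and 0.539 with spermidine against young hearts; the smallest unadjusted p were 0.0502, 0.0396 and 0.0261. The filter at the background limit removed the Sirt6 probes, so it gave them no value. The titles share replicate numbers, so a fit with the number as a replicate block was run: it called 0 of these probes, and Ido1 was lost in it (adjusted p = 0.0648). Deviations of same-numbered arrays of different groups correlated at -0.18 to 0.11, above 0.1 in 3 of 12 pairs. Those of differently numbered arrays of different groups correlated at -0.19 to 0.33. The first range lies inside the second, which with 12 pairs cannot settle whether the numbers pair samples. As no pairing is stated, the main fit has no block. Ido1 was also lost with a constant of 4 (0.0746), with no filter on dim probes (0.0509), without the 2 arrays high in airway transcripts (0.107) and without those and aged replicate 1 (0.134). Over all probes the count with age was 164, between 41 and 559 without 1 array and 50 to 378 in the other alternatives; with spermidine against aged hearts it was 1, between 0 and 49, and against young hearts 33, between 12 and 105. Averaging the kept probes of Sirt5 or of Sirt6 gave no call. Sirt6 has no usable level at this signal.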
